A study of Mus musculus with 6 samples.

Results

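The Hox genes are homeobox genes that lie in 4 clusters, Hoxa, Hoxb, Hoxc and Hoxd, and 38 of them were taken by gene symbol from the annotation of the array. Of these, 37 had a probe set that names no other gene, out of 19938 genes measured in the same way, and each had 1 such probe set. Hoxb8 was not measured on its own, because its probe set is shared with Hoxb7. The signals came from 6 GeneChip Mouse Gene 1.0 ST arrays, which hold probes along each gene and report a log2 signal per probe set.

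The cells were mouse embryonic stem cells (mESCs) of the 129SVEV background in which GFP had been knocked in at the gene of CTIP2 (Bcl11b), a transcription factor of deep-layer cortical neurons that project below the cortex. They had been grown as floating aggregates by the SFEBq method, in which mESCs are led to cortical progenitors. In the first days SB-431542, an inhibitor of the TGF-beta receptor, and WNT-C59, an inhibitor of WNT secretion, were added. The medium was then switched, ahead of the sorts. CTIP2:GFP+ cells and CTIP2:GFP- cells were separated by fluorescence-activated cell sorting on day 11, day 12 and day 13, with 1 array for each fraction and day, so that each fraction had 3 arrays. Both fractions came from the same knock-in cells and the same culture conditions, and the reporter cassette was present in both. Which cells make up the CTIP2:GFP- fraction is not set by the sort, and the mESC line had been kept on mouse embryonic fibroblast feeders before differentiation. Nothing in the labels says whether the 3 days were separate differentiations, so the p-values measure only the spread between these arrays, which may be technical.

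Hox genes encode transcription factors that give cells along the head-to-tail axis of the embryo their regional identity. Their order along each cluster follows their order of expression along the axis, so that the genes of paralog groups 1 to 3 reach into the hindbrain, those of groups 4 to 8 mark the lower hindbrain and the cervical and thoracic spinal cord, and those of groups 9 to 13 mark the lower thoracic to caudal levels and the limbs. The forebrain, from which the cortex arises, normally lies in front of the Hox-expressing territory. In the early embryo the clusters are held silent by Polycomb complexes and are opened by retinoic acid, WNT and FGF signals, partly through the CDX factors.

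The DNA around the start sites of the Hox genes was set out first, since HOX proteins act on one another's genes. RefSeq promoter windows (build GRCm38.p6), which run from 250 bases before to 50 bases after a gene's start, were matched for 22 of the 38 listed genes, in 24 windows of 300 bases. These windows had a median of 14.5 CpG dinucleotides and 57.7% G and C, whereas all 32851 windows had medians of 7 and 52.7%. Motifs were searched on both strands. TGATNNAT, the letters that HOX and PBX proteins bind together, occurred in 4 of 24 Hox windows (16.7%) and in 8.85% of all windows. AGGTCA, a half-site of the retinoic acid receptors, occurred in 7 Hox windows (29.2%) and in 16.3% of all, and TATAAA, the TATA box, in 4 Hox windows (16.7%) and in 13.6% of all. The 3 windows of measured genes with TGATNNAT are printed here in lower case, read 5′ to 3′ along the gene's strand, with TGATNNAT or its reverse complement in capitals. The match begins 111 bases before the start of Hoxa2 (chr6:52164782-52165081, minus strand), 162 bases before the start of Hoxb1 (chr11:96365508-96365807, plus strand) and 73 bases before the start of Hoxd11 in one of its 2 windows (chr2:74682073-74682372, plus strand). These matches are descriptions of letters, and binding was not measured.
Hoxa2: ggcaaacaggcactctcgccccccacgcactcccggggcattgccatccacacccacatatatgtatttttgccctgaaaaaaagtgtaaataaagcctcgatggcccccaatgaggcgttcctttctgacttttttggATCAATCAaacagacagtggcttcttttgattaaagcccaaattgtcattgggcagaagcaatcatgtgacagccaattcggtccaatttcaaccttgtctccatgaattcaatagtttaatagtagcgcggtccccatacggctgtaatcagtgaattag
Hoxb1: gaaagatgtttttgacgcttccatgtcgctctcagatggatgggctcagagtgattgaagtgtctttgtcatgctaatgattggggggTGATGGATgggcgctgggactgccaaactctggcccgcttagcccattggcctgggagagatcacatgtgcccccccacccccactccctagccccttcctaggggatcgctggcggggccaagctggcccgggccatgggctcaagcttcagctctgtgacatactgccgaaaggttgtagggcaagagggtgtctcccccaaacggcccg
Hoxd11: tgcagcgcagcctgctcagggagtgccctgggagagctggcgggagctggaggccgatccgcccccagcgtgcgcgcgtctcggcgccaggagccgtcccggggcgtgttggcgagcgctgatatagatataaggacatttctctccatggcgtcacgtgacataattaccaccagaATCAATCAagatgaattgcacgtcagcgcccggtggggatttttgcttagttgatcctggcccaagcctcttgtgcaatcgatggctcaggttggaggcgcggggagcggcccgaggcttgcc

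Most Hox genes gave weak signals in both fractions, and the few that stood above the median of their array on all 6 arrays were mainly genes of the hindbrain end of the clusters. Of the 37, 6 (Hoxa2, Hoxa4, Hoxb1, Hoxb2, Hoxb3 and Hoxb9) were above the array median on every array, whereas 42.8% of all genes were. The count was 2 (Hoxb1 and Hoxb2) when the median of the 19938 genes used took the place of that of all probe sets. Hoxa2 then fell short on the CTIP2:GFP- array of day 13 only, at 5.616 against 5.631. Another 18 lay below the median on all 6 arrays (34.4% of all genes), and 13 were on both sides. As a second reference, the 95th percentile of 1027 olfactory receptor genes, which are silent in most tissues, was 5.13, 4.996 and 5.06 on the CTIP2:GFP+ arrays of day 11, day 12 and day 13, and 5.18, 4.89 and 5.38 on the CTIP2:GFP- arrays. Hoxd3 and Hoxd9 joined the 6 genes above this level on all arrays, which made 8 of 37 (52.8% of all genes), and 16 of 37 did not reach it on any array (26.1% of all genes). Without the CTIP2:GFP- array of day 13, these counts were 8 and 20, for which the shares of all genes are not given here. Signals of different probe sets also differ by how well their probes hybridise, so that the order of genes by level is a description.

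**Figure D1:**
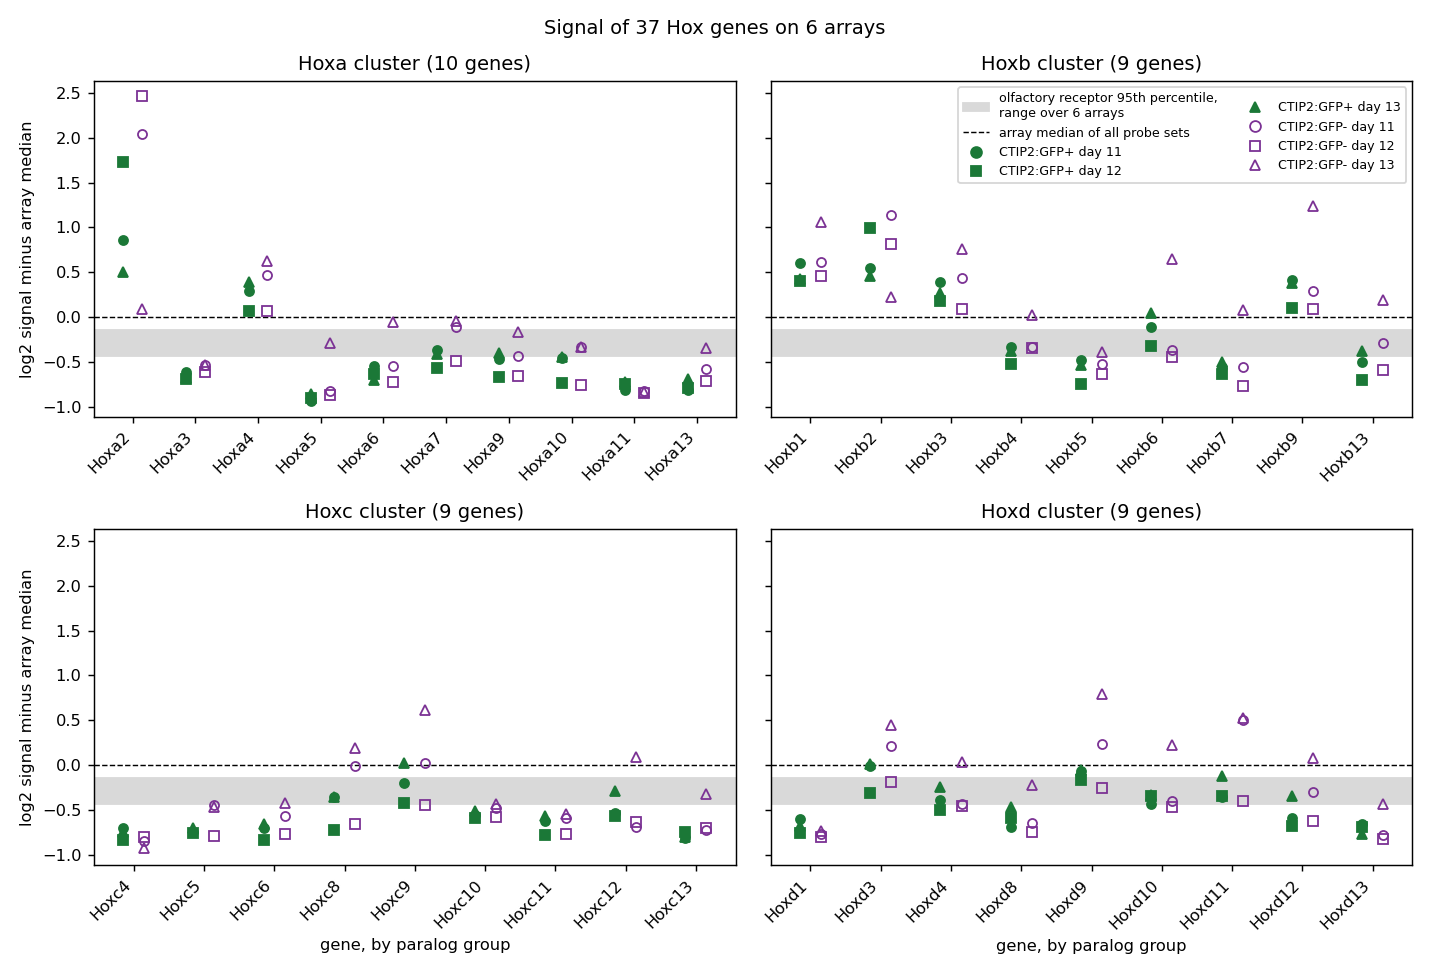
Log2 signal minus the array median (y axis) of 37 Hox genes in the 4 clusters, by paralog group (x axis). Filled symbols are CTIP2:GFP+ arrays and open symbols CTIP2:GFP- arrays of day 11 (circles), day 12 (squares) and day 13 (triangles), the dashed line is the array median and the grey band the range of the olfactory receptor 95th percentile over the arrays. Hoxa2 stands highest, 6 genes lie above the median on all 6 arrays, and the open triangle is the highest point of 31 genes.

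By position along the clusters, the 7 measured genes of paralog groups 1 to 3 had a median signal 0.35 above the array median on the log2 scale, and 4 of them were above it on all arrays. Another 2, Hoxa3 and Hoxd1, were below it on all arrays and did not reach the olfactory receptor level on any. The 14 genes of groups 4 to 8 had a median of -0.51 relative to the array median, with 1 gene (Hoxa4) above it throughout, and the 16 genes of groups 9 to 13 had a median of -0.45, again with 1 (Hoxb9). All genes together had a median of 0.17 on this scale. Among clusters, Hoxb stood highest, with a median of -0.09 over 9 genes and 4 genes above the array median on all arrays. The Hoxd genes had -0.33 over 9 genes, the Hoxa genes -0.52 over 10 and the Hoxc genes -0.65 over 9, and no Hoxc or Hoxd gene was above the median on every array. Of the Hoxa and Hoxc genes, 6 each did not reach the olfactory receptor level on any array, against 1 of the Hoxb genes and 3 of the Hoxd genes. Paralog group 2, of which Hoxa2 and Hoxb2 are the only members, had the highest median of all groups, at 0.99 above the array median.

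The sort itself was visible in the targeted gene. Bcl11b had signals of 8.76, 7.91 and 8.54 in CTIP2:GFP+ cells on day 11, day 12 and day 13, against 6.44, 6.27 and 6.88 in CTIP2:GFP- cells (difference 1.87, adjusted p = 0.0248, limma). This call was lost in 5 of 13 alternative settings (without day 13, with median centring, quantile normalization or olfactory receptor centring, and with the methods' t-test), with adjusted p from 0.0559 to 0.296. Its probe set reads the locus that also carries the reporter. Of 8 measured genes of cortical neurons, Bcl11b alone passed the test (Reln differed by 1.33, adjusted p = 0.152), and 4 of the 8 were above the array median on all arrays (42.8% of all genes). Array medians lay between 5.34 and 5.40 in the CTIP2:GFP+ fraction and between 5.32 and 5.52 in the CTIP2:GFP- fraction. The CTIP2:GFP- array of day 13 stood apart: its signals had a standard deviation over probe sets of 1.11, against 1.29 to 1.48 on the other 5 arrays, and the main counts and differences are also given without it.

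No Hox gene passed the test between the fractions. In the limma fit with fraction and day, 0 of 37 had an adjusted p under 0.05, and the smallest adjusted p was 0.329. Of all genes, 1.36% passed (0.797% higher and 0.567% lower in CTIP2:GFP+ cells). At so small a share, a count of 0 of 37 is not particular to the Hox genes. At an unadjusted p under 0.05 the count was again 0 of 37, against 15.5% of all genes. The mean differences ran between -0.56 and 0.04 on the log2 scale with a median of -0.21, while the median over all genes was -0.05 and that over the olfactory receptor genes -0.09. The Hox median was -0.06 without day 13 (all genes -0.02) and -0.02, with no day block, without the CTIP2:GFP- array of day 13 (all genes -0.01). No Hox gene was over 2-fold higher on average (1.97% of all genes) and none over 2-fold lower (1.02% of all genes). These shares, too, are too small to set a count of 0 of 37 apart. The arrays are of bulk RNA, in which fewer cells of a type and less RNA per cell cannot be told apart.

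Day by day the picture differed. On day 11, 29 of 37 Hox genes were lower in CTIP2:GFP+ than in CTIP2:GFP- cells (51.6% of all genes and 74.1% of the olfactory receptor genes), with a median difference of -0.11. On day 12 the fractions were close: 18 of 37 were lower (51.3% of all genes, 36.2% of the olfactory receptor genes), the median difference was 0.01, and 36 of 37 lay within 0.2 of 0, as did 60.9% of all genes. Hoxa2 was the exception. Most Hox signals lay near the olfactory receptor level, where array signals understate differences, so this closeness may not be particular to Hox genes. On day 13, 34 of 37 were lower (56.0% of all genes, 84.2% of the olfactory receptor genes), with a median of -0.52, against -0.07 over all genes and -0.18 over the olfactory receptor genes. Over the 3 days, 14 genes were lower in CTIP2:GFP+ cells each day (21.4% of all genes) and 0 were higher each day (16.9% of all genes). With the day 13 pair left out, 15 genes were lower on both remaining days (30.2% of all genes) and 5 were higher on both, the latter given without its share of all genes. With 1 pair a day, the change of the difference between days could not be tested.

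**Figure D2:**
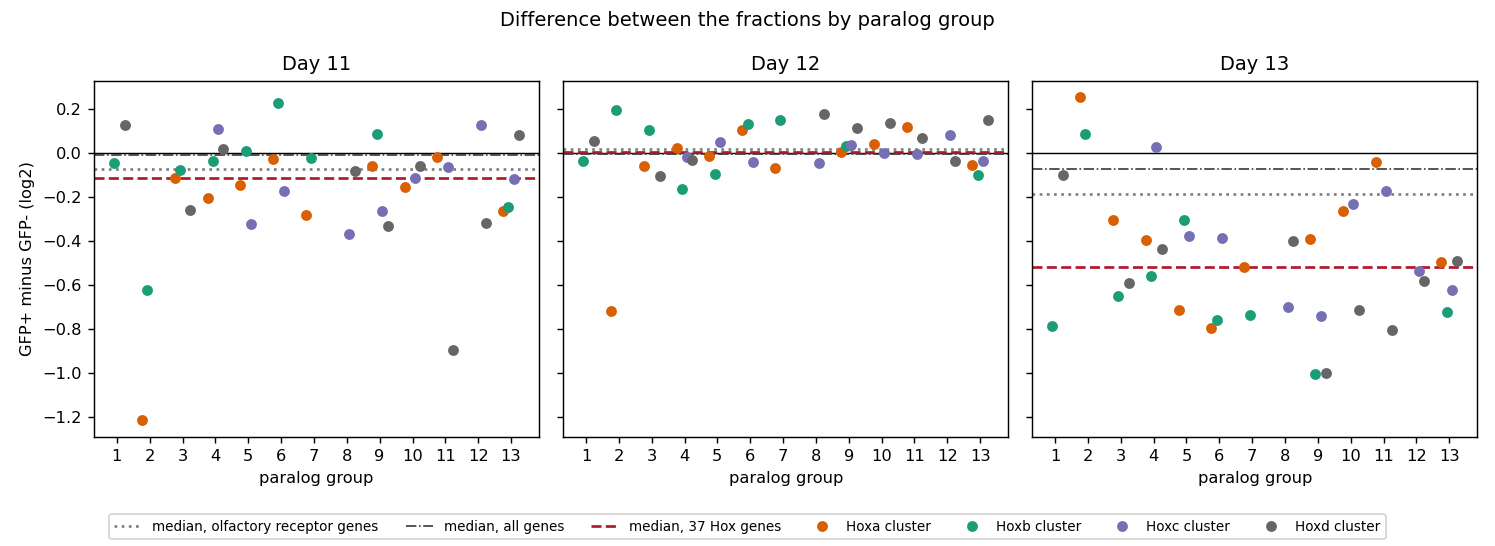
Difference in log2 signal, CTIP2:GFP+ minus CTIP2:GFP- (y axis), of each Hox gene by paralog group (x axis) on day 11, day 12 and day 13, coloured by cluster, 1 array per fraction and day. Horizontal lines are the medians of the 37 Hox genes (dashed), the olfactory receptor genes (dotted) and all genes (dash-dotted); the Hox median is -0.11, 0.01 and -0.52 on the 3 days, and the 2 genes of paralog group 2 lie above 0 on day 13.

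The day 13 values rested on the CTIP2:GFP- array of that day. It was the highest of the 6 arrays for 33 of 37 Hox genes (89.2%), as it was for 37.9% of all genes and 64.3% of the olfactory receptor genes, and for 31 after each array's median was subtracted. The Hox median was 4.92, 4.71 and 4.97 in CTIP2:GFP+ cells and 4.999, 4.70 and 5.55 in CTIP2:GFP- cells on day 11, day 12 and day 13. Relative to the olfactory receptor median of the same array, this was 0.47, 0.31 and 0.49 in CTIP2:GFP+ cells and 0.44, 0.32 and 0.86 in CTIP2:GFP- cells. After the olfactory receptor medians of the arrays were subtracted, the Hox genes had median differences of -0.01, -0.01 and -0.31 over the 3 days, with 19, 19 and 31 of 37 lower in CTIP2:GFP+ cells. Without that array, the same 6 genes were counted above the array median on all 5 others, and the number below it on all of them was 26. The shares of all genes for the counts after a subtraction or without that array are not given here. Those counts thus describe the Hox genes alone.

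**Figure D3:**
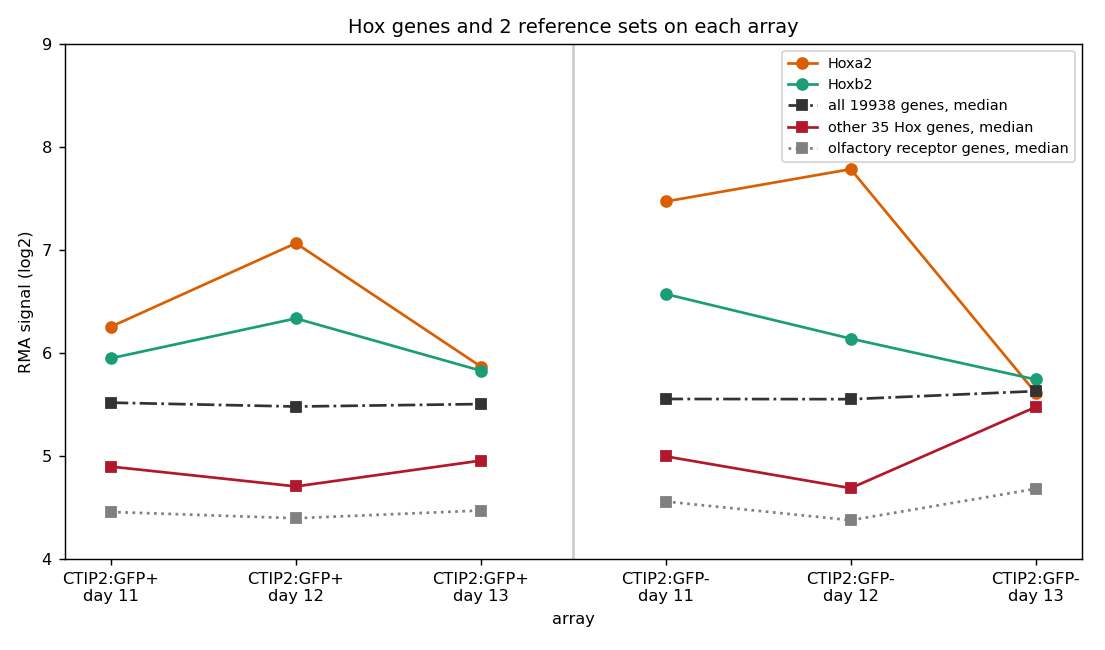
Log2 signal (y axis) on the 3 CTIP2:GFP+ arrays (left) and the 3 CTIP2:GFP- arrays (right) of Hoxa2, Hoxb2, the median of the other 35 Hox genes, the median of all 19938 genes and the median of the olfactory receptor genes. On the CTIP2:GFP- array of day 13 the median of the other Hox genes has its highest value, while Hoxa2 and Hoxb2 have their lowest.

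Hoxa2, which sets the identity of the second pharyngeal arch and patterns the anterior hindbrain, had the highest mean signal over the 6 arrays. Its signals were 6.26, 7.07 and 5.87 in CTIP2:GFP+ cells on day 11, day 12 and day 13, against 7.47, 7.79 and 5.62 in CTIP2:GFP- cells. It was thus lower in CTIP2:GFP+ cells by 1.21 on day 11, over 2-fold, and by 0.72 on day 12, and differed by 0.25 on day 13, with overlapping fractions. The mean difference was -0.56 (SE 0.29, 95% confidence interval -1.26 to 0.15, adjusted p = 0.439). Its range over the arrays, 2.17, is one that 2.19% of all genes reach, and its place among all probe sets of an array lay between percentile 53.5, on the CTIP2:GFP- array of day 13, and percentile 89.2, on the CTIP2:GFP- array of day 11. The difference was -0.23 without day 11 (adjusted p = 0.9999), -0.48 without day 12 (adjusted p = 0.435) and -0.97 without day 13 (adjusted p = 0.0971).

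Hoxb2, its paralog, which acts in rhombomere 4 of the hindbrain and in facial motor neurons, had signals of 5.95, 6.34 and 5.83 in CTIP2:GFP+ cells and 6.57, 6.14 and 5.74 in CTIP2:GFP- cells. It was lower in CTIP2:GFP+ cells by 0.62 on day 11 only, and the fractions overlapped (mean difference -0.11, 95% confidence interval -0.61 to 0.38, adjusted p = 0.811). Without day 11 the difference was 0.14. Hoxa2 and Hoxb2 were the only Hox genes with their lowest signal on the CTIP2:GFP- array of day 13, the array on which 33 of the other 35 had their highest. Of all genes, 31.2% were lowest on that array. The remaining 2, Hoxc4 and Hoxd1, had their highest signal on the CTIP2:GFP+ array of day 11.

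Hoxb1, the gene that defines rhombomere 4 and keeps itself active there, had signals of 6.01, 5.74 and 5.79 in CTIP2:GFP+ cells and 6.05, 5.78 and 6.58 in CTIP2:GFP- cells (adjusted p = 0.568). Hoxb3, a gene of the hindbrain behind it, had 5.79, 5.51 and 5.64 in CTIP2:GFP+ cells and 5.87, 5.41 and 6.29 in CTIP2:GFP- cells (adjusted p = 0.661). In both genes the fractions lay within 0.2 of each other on day 11 and day 12, and the CTIP2:GFP- array of day 13 stood above the rest. Hoxa4, of the lower hindbrain and cervical levels, had 5.70, 5.41 and 5.76 in CTIP2:GFP+ cells and 5.90, 5.39 and 6.15 in CTIP2:GFP- cells (adjusted p = 0.616). Without day 13 the difference was -0.04 for Hoxb1, against -0.29 with all days, and -0.09 for Hoxa4, against -0.19. Hoxb9, a posterior gene that marks lower thoracic levels, had 5.82, 5.44 and 5.75 in CTIP2:GFP+ cells and 5.73, 5.41 and 6.76 in CTIP2:GFP- cells, with daily differences of 0.09, 0.03 and -1.01 (adjusted p = 0.639). Its mean difference was -0.30 with all days and 0.06 without day 13, and that of Hoxb3 was -0.21 with all days and 0.01 without day 13. On day 13, Hoxb9 and Hoxd9 were the 2 Hox genes over 2-fold lower in CTIP2:GFP+ cells (2.29% of all genes), on day 11 Hoxa2 was the only one (1.3% of all genes), and on day 12 there were 0 (2.43% of all genes). None was over 2-fold higher on day 11 (1.85% of all genes), day 12 (1.48%) or day 13 (9.18%).

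**Figure D4:**
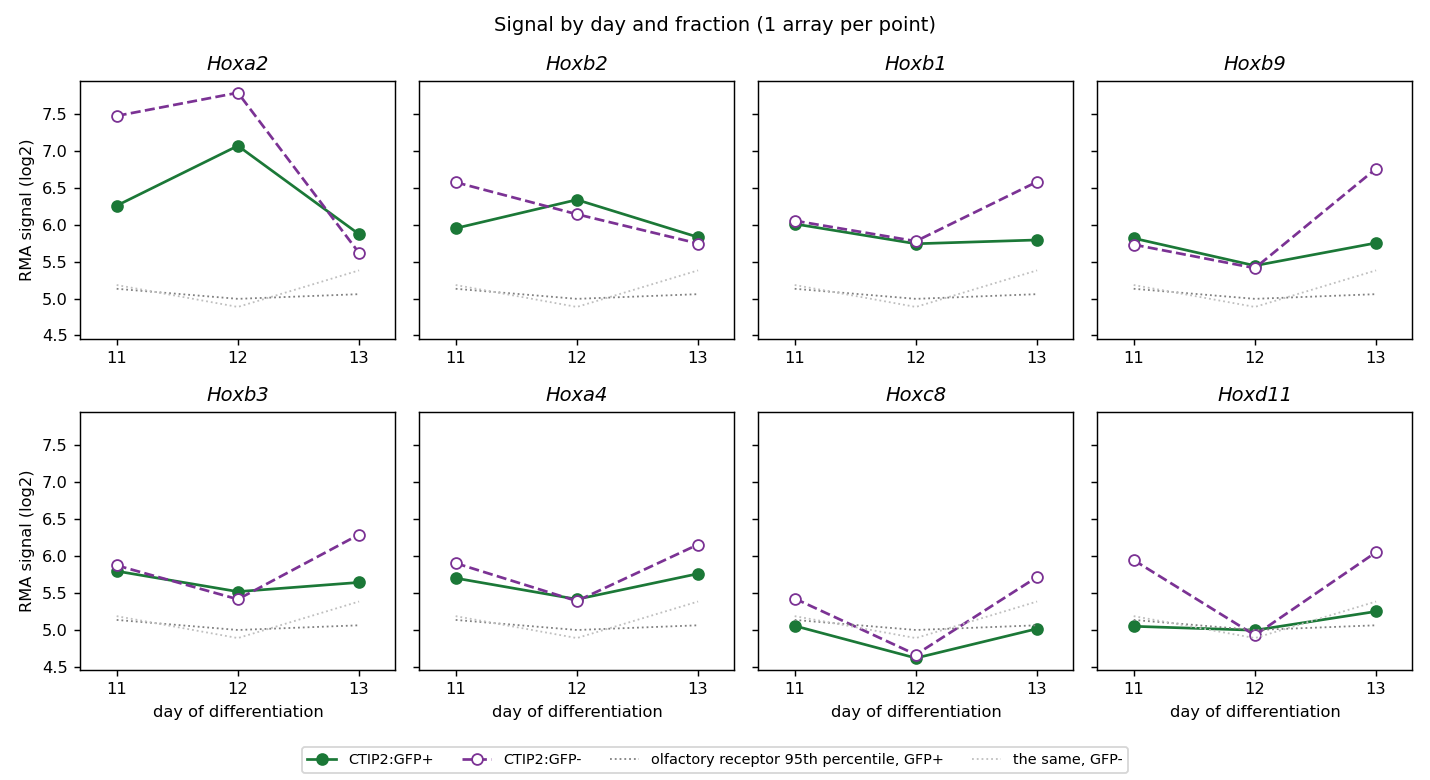
Log2 signal (y axis) of 8 Hox genes by day (x axis) in CTIP2:GFP+ cells (filled, solid line) and CTIP2:GFP- cells (open, dashed line), 1 array per point, with the olfactory receptor 95th percentile of each fraction dotted. Hoxa2 is lower in CTIP2:GFP+ cells on day 11 and day 12 and both fractions are low on day 13, whereas Hoxb1, Hoxb9, Hoxb3 and Hoxa4 part mainly on day 13.

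Among the 14 genes that were lower in CTIP2:GFP+ cells on each day, the mean difference was largest for Hoxc8, Hoxb13, Hoxd3 and Hoxd12. Hoxc8, which patterns thoracic vertebrae and brachial motor neurons, had signals of 5.05, 4.62 and 5.01 in CTIP2:GFP+ cells and 5.42, 4.66 and 5.71 in CTIP2:GFP- cells (mean difference -0.37, SE 0.17, adjusted p = 0.394). Hoxb13, a gene of the tail bud and prostate, had 4.90, 4.64 and 4.99 in CTIP2:GFP+ cells and 5.15, 4.74 and 5.71 in CTIP2:GFP- cells (adjusted p = 0.416). Hoxc8 exceeded the olfactory receptor level on the CTIP2:GFP- arrays of day 11 and day 13 only, and Hoxb13 on that of day 13 only, and in both genes the fractions overlapped. Hoxd3, a hindbrain and neck gene, had 5.39, 5.02 and 5.39 in CTIP2:GFP+ cells and 5.65, 5.13 and 5.98 in CTIP2:GFP- cells (adjusted p = 0.427). Hoxd12, a gene of the distal limb, had 4.82, 4.67 and 5.02 in CTIP2:GFP+ cells and 5.14, 4.70 and 5.60 in CTIP2:GFP- cells (adjusted p = 0.446). In each of the 4 genes the day 12 difference was the smallest of the 3. Without day 13 their mean differences were -0.21 (Hoxc8), -0.17 (Hoxb13), -0.18 (Hoxd3) and -0.18 (Hoxd12), and without the CTIP2:GFP- array of day 13, with no day block, -0.15, -0.10, -0.12 and -0.08.

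Hoxd11, Hoxd9 and Hoxc13 were picked after their values were seen. Hoxd11, a gene of the forearm and sacral region, had the smallest adjusted p of all Hox genes, 0.329, with signals of 5.05, 4.99 and 5.25 in CTIP2:GFP+ cells and 5.94, 4.92 and 6.05 in CTIP2:GFP- cells. It was lower in CTIP2:GFP+ cells by 0.90 on day 11 and by 0.80 on day 13, and differed by 0.07 on day 12. Hoxd9 had 5.34, 5.18 and 5.32 in CTIP2:GFP+ cells and 5.67, 5.06 and 6.32 in CTIP2:GFP- cells (mean difference -0.41, and -0.11 without day 13). Hoxc13, a gene of hair and nail, was the 1 Hox gene with every CTIP2:GFP+ array below every CTIP2:GFP- array (7.85% of all genes), and 0 Hox genes had the opposite order (9.05% of all genes). Its signals were 4.59, 4.59 and 4.57 in CTIP2:GFP+ cells and 4.71, 4.63 and 5.20 in CTIP2:GFP- cells. All of its signals were below the olfactory receptor 95th percentile of their array.

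Over the days, most Hox genes were lowest on day 12. For 34 of 37 the lowest array was one of the 2 day 12 arrays (44.6% of all genes, 84.0% of the olfactory receptor genes). In the fit, 36 of 37 were lower on day 12 than on day 11 (54.7% of all genes, 97.0% of the olfactory receptor genes). Likewise 35 of 37, all but Hoxa2 and Hoxb2, were higher on day 13 than on day 12 (53.9% of all genes, 97.3% of the olfactory receptor genes). No Hox gene and 0.0% of all genes passed the test in any of the 3 day contrasts. At an unadjusted p under 0.05, 2 of 37 differed between day 12 and day 11 (5.85% of all genes), 14 of 37 between day 13 and day 12 (17.4%) and 1 of 37 between day 13 and day 11 (2.24%). Hoxa2 had the opposite course, being 1.68 lower on day 13 than on day 12 over both fractions (SE 0.35, adjusted p = 0.284).

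Genes that act with or upstream of Hox genes were then counted. Of all genes, 1.36% passed the test between the fractions, so a count of 0 in any of the short lists below is not particular to it. None of the 11 measured Hox cofactors, the PBX, MEIS, PKNOX and TSHZ proteins that bind DNA with HOX proteins or modify their action, passed the test. All 11 were above the olfactory receptor level on every array (52.8% of all genes). Tshz2 had the largest mean difference of them, at 6.80, 7.87 and 6.88 in CTIP2:GFP+ cells and 6.29, 6.88 and 6.44 in CTIP2:GFP- cells (difference 0.65, adjusted p = 0.138), followed by Pknox2 (difference 0.53). Of the 6 CDX and ParaHox genes none passed, and 6 of 6 were lower in CTIP2:GFP+ cells on day 13 (56.0% of all genes, 84.2% of the olfactory receptor genes). Cdx1, an activator of Hox genes, had a difference of -0.45 and Gsx1, a gene of the ventral forebrain and spinal cord, one of -0.27.

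Of 17 measured genes of the retinoic acid pathway 0 passed, but the degrading enzyme Cyp26b1 had 5.74, 6.22 and 5.87 in CTIP2:GFP+ cells and 7.73, 7.82 and 6.71 in CTIP2:GFP- cells (difference -1.47, SE 0.24, adjusted p = 0.0584). Its fractions did not overlap. Crabp2, which carries retinoic acid to its receptors, differed by -1.28, -1.38 and 0.58 on the 3 days (adjusted p = 0.496), so that it was lower in CTIP2:GFP+ cells on day 11 and day 12 only. None of 27 measured Polycomb genes and none of 11 Trithorax and H3K27 demethylase genes passed. The median differences on day 11, day 12 and day 13 were 0.06, -0.02 and 0.39 for Polycomb and 0.24, -0.08 and 0.53 for Trithorax, and the Polycomb signals summed, on the linear scale, to 5105 to 5779 in CTIP2:GFP+ cells, against 5126 to 5600 on day 11 and day 12 and 3438 on day 13 in CTIP2:GFP- cells. The largest mean differences among them were those of Mtf2 (0.74) and Pcgf3 (0.64), and of Kmt2c (0.62) and Ash2l (0.53). Of 12 measured regulators of hindbrain and spinal cord none passed (median difference -0.11, with En2 at -0.53 and Barhl1 at -0.30). Of 12 forebrain regulators 1 passed: Lmo3 was higher in CTIP2:GFP+ cells by 1.08 (adjusted p = 0.0331, and 0.0607 to 0.215 in the same 5 settings in which the call of Bcl11b was lost), while Pax6, which marks cortical progenitors, differed by -1.28 (adjusted p = 0.103).

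The day 13 differences of markers of other cell types rest on the same CTIP2:GFP- array, and the part of these cell types in the Hox values was not tested. On day 13 the median difference was -0.44 over 14 fibroblast markers, -0.67 over 9 mesoderm markers, -0.54 over 7 neural crest markers, -0.44 over 10 endothelial and blood markers and -0.45 over 9 pluripotency markers, with 13, 8, 7, 9 and 8 genes lower in CTIP2:GFP+ cells. On that day 56.0% of all genes and 84.2% of the olfactory receptor genes were lower in CTIP2:GFP+ cells, with median differences of -0.07 and -0.18. No gene of these 5 lists passed the test over the 3 days (1.36% of all genes). The largest mean differences were those of Pdgfra (1.26) and Pdgfrb (-0.77) among the fibroblast markers, Pax3 (-1.25) and Tcf15 (-0.50) among the mesoderm markers, Tfap2b (-0.43) and Sox10 (-0.34) among the neural crest markers, Cd34 (-0.63) and Tal1 (-0.59) among the endothelial and blood markers, and Klf4 (-0.57) and Esrrb (-0.39) among the pluripotency markers. The fibroblast markers summed, on the linear scale of the signal, to 613 to 662 in CTIP2:GFP+ cells, against 563 to 600 on day 11 and day 12 and 844 on day 13 in CTIP2:GFP- cells. Of these markers, Dcn, Lum, Prrx1, Postn and Lox did not exceed the olfactory receptor level on any array. The mesoderm markers summed to 308 to 329 in CTIP2:GFP+ cells, against 388 to 446 on day 11 and day 12 and 481 on day 13 in CTIP2:GFP- cells, with Meox1, Meox2 and Foxc1 under that level throughout. The neural crest markers summed to 265 to 280 in CTIP2:GFP+ cells, against 295 to 299 on day 11 and day 12 and 401 on day 13 in CTIP2:GFP- cells. The endothelial and blood markers summed to 326 to 448 in CTIP2:GFP+ cells, against 346 to 467 and, on day 13, 483 in CTIP2:GFP- cells, and the pluripotency markers to 237 to 282 in CTIP2:GFP+ cells, against 250 to 279 and, on day 13, 454 in CTIP2:GFP- cells. In these 3 lists, Ets1 and Snai2, Ptprc, and Zfp42, Dppa5a and Tdgf1 did not exceed the olfactory receptor level on any array. The 37 Hox genes summed to 1223 to 1295 in CTIP2:GFP+ cells, against 1285 to 1542 on day 11 and day 12 and 1834 on day 13 in CTIP2:GFP- cells. The Hox sums weigh the strongest gene of each array most. That gene was Hoxa2 on every array but the CTIP2:GFP- array of day 13. There Hoxb9 was the strongest, at 6.76, and Hoxa2 had 5.62. All the sums given for these lists include the signal that silent genes also give, which was not taken off. The olfactory receptor median was 4.68 on the CTIP2:GFP- array of day 13 and between 4.38 and 4.56 on the others. After the olfactory receptor medians were subtracted from the log2 signals, the median Hox difference was -0.01, -0.01 and -0.31 on day 11, day 12 and day 13. The part of other cell types, and that of the signal distribution of the CTIP2:GFP- array of day 13, in the Hox values was not tested.

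**Figure D5:**
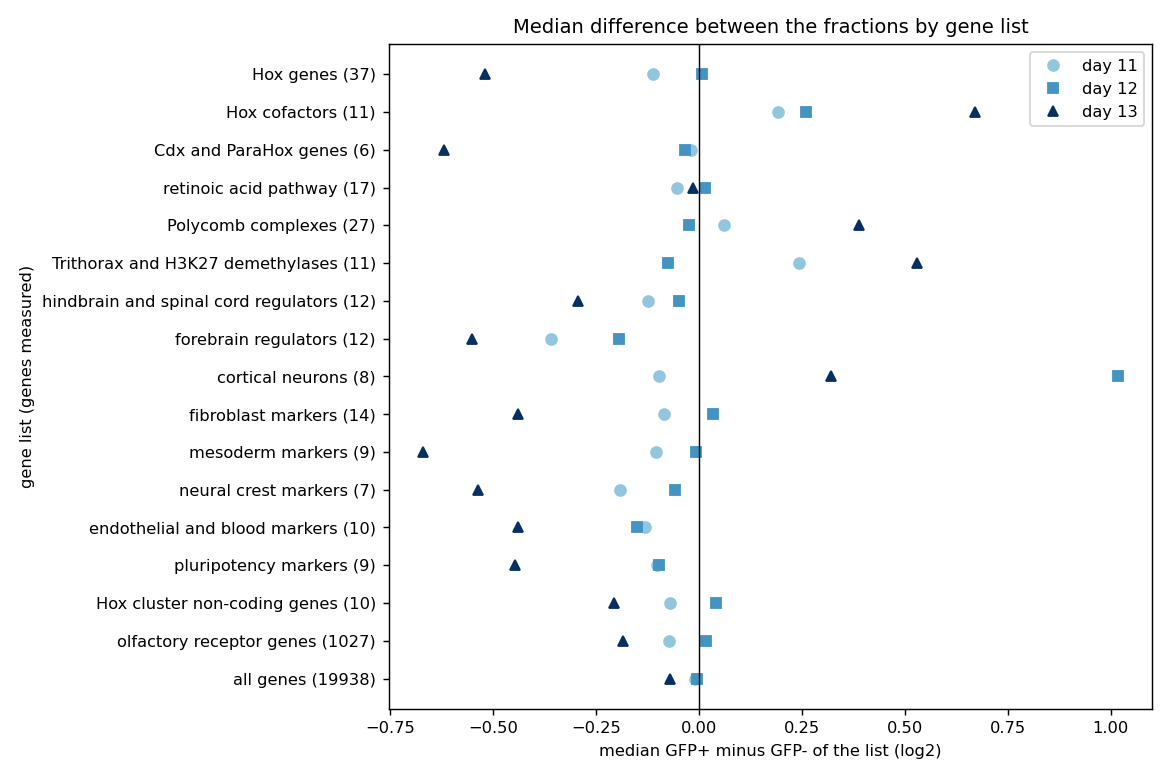
Median CTIP2:GFP+ minus CTIP2:GFP- difference in log2 signal (x axis) of the Hox genes, the other gene lists, the olfactory receptor genes and all genes (y axis, number of genes measured in brackets) on day 11, day 12 and day 13. On day 13 the Hox genes lie at -0.52, the 5 lists of markers of other cell types between -0.67 and -0.44, and the Hox cofactors at 0.67.

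The Hox clusters also hold non-coding genes, of which 10 of 17 listed were measured. None passed the test (1.36% of all genes), and 8 of the 10 did not exceed the olfactory receptor level on any array (26.1% of all genes). Among them were the hairpins of the miR-10 and miR-196 families, which lie in the Hox clusters and are known to target Hox messages. Their mature sequences (RefSeq, GRCm38.p6) are shown with bases 2 to 8, the seed that pairs with targets, in capitals, because miR-10a and miR-10b share one seed and miR-196a and miR-196b another. Mir10a had signals of 4.29, 4.25 and 4.30 in CTIP2:GFP+ cells and 4.36, 4.23 and 5.02 in CTIP2:GFP- cells. Mir10b, Mir196a-1, Mir196a-2 and Mir196b were at 5.17 or below on all arrays. A probe set of this kind does not separate the mature miRNA from its longer precursor.
mmu-miR-10a-5p: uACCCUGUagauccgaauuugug
mmu-miR-10b-5p: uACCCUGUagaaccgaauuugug
mmu-miR-196a-5p: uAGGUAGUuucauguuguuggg
mmu-miR-196b-5p: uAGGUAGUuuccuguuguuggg
mmu-miR-615-3p: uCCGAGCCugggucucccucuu

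Mir615, which lies in the Hoxc cluster and has a seed of its own, was one of 2 non-coding genes above the array median on all arrays. Its signals were 6.51, 5.75 and 6.08 in CTIP2:GFP+ cells and 6.40, 5.69 and 7.06 in CTIP2:GFP- cells (difference -0.27, adjusted p = 0.661), and the CTIP2:GFP- array of day 13 was again the highest. The other, Hoxaas2, picked after its values were seen, is a non-coding gene between the starts of Hoxa2 and Hoxa3. It had 5.54, 5.94 and 5.42 in CTIP2:GFP+ cells and 6.17, 5.82 and 5.60 in CTIP2:GFP- cells (difference -0.23, adjusted p = 0.616), so that its highest signal, like that of Hoxb2, was on the CTIP2:GFP- array of day 11.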

How the data were processed

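Total RNA from sorted cells was hybridised to 6 arrays, 1 for each fraction and day. The deposited log2 signals had been made by the authors with RMA16 (GeneSpring). It is not given in the sources used here if all arrays went through 1 normalization, which would affect levels between arrays. Gene names came from the platform annotation, in which 21789 of 28853 probe sets have 1 symbol, 1621 several and 5443 none. A gene with several single-symbol probe sets was represented by that of highest mean signal, which left 19938 genes.

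A linear model of fraction and day was fitted to all genes with limma 3.58.1 (R 4.3.3) and moderated with eBayes, and p-values were adjusted by Benjamini-Hochberg over all 19938 genes with a threshold of 0.05. The fit was tested on simulated data with known changes. Fractions were paired by the day in the labels, and the arrays of a day deviated together from the means of their fractions (correlations across genes of 0.112, 0.558 and 0.368 on day 11, day 12 and day 13). Levels were set against each array's median over all probe sets and against the 95th percentile of 1027 olfactory receptor genes (symbols beginning with Olfr). The number of arrays limits the precision. Genes named in full were the 6 Hox genes with the highest mean signal, the 4 with the largest negative mean difference among those with 1 sign on all 3 days (0 had a positive one), any past a test, the 2 with the largest difference in each other list, and Bcl11b. The Hox genes, the lists and this rule were chosen with earlier results of these data known. Alternatives were no day block, leaving out each day, other centring or normalization, the mean of probe sets, filters on dim genes, trended and robust eBayes, and the methods' t-test. Centring on the olfactory receptor median and leaving out the CTIP2:GFP- array of day 13 were added after the data were seen. The build of the annotation is not given in the sources used here, so only the RefSeq sequences carry coordinates.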

Additional observations from a re-analysis of the deposited data

Results flagged for a closer look

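For 3 Hox genes the difference between the fractions changed direction over the days while being over 2-fold on 1 of them, with 1 pair of arrays a day, so that the change itself was not tested. Hoxa2 differed by -1.21 on day 11, -0.72 on day 12 and 0.25 on day 13 (CTIP2:GFP+ minus CTIP2:GFP-, log2). Hoxb9 differed by 0.086, 0.033 and -1.01, and Hoxd9 by -0.33, 0.11 and -1.001. Both day 13 values rest on the CTIP2:GFP- array of that day. Groups of 3 arrays are too small for a test of single outlying arrays.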

How the results depend on the processing

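The count of Hox genes past the test between the fractions was 0 higher and 0 lower in the fit with day as a block, and also 0 and 0 with no replicate block, although that fit gave 84 and 41 of all genes against 159 and 113 with the block. Leaving out each day gave 0 to 0 higher and 0 to 1 lower. The 1 was Hoxd11 without day 12 (-0.85, adjusted p = 0.0457), a fit in which 930 of all 19938 genes were higher and 229 lower. The median Hox difference ran from -0.35 to -0.06 over these fits. It was -0.02 with no block and without the CTIP2:GFP- array of day 13. With quantile normalization it was -0.18 (all genes -0.0093), with median centring -0.15 (all genes 0.0024) and with olfactory receptor centring -0.11 (all genes 0.044). With day 13 left out, with each array centred on its median, with centring on the olfactory receptor median and with the methods' t-test, 0 and 0 of all genes passed, so a count of 0 Hox genes there is not particular to them, and trended and robust eBayes gave 549 and 510. The mean difference turned positive for Hoxb2 without day 11 (0.14, with -0.27 without day 12), and for Hoxb9 and Hoxb3 without day 13 (0.060 and 0.013, with -0.49 for Hoxb9 without day 11 and -0.36 for Hoxb3 without day 12) and, with no block, without the CTIP2:GFP- array of day 13 (0.10 and 0.0083). In that last fit 1 gene, Hoxa2, was over 2-fold lower on average (-1.23, adjusted p = 0.183), and its difference over all settings ran from -1.23 to -0.23. Between day 13 and day 12, Hoxa2 was past the test (1 gene lower, -1.68) without day 11 (adjusted p = 0.0081), among genes above the median (adjusted p = 0.0394, with 7 Hox genes tested) and with trended and robust eBayes (adjusted p = 0.0129), where 2 genes, Hoxb6 and Hoxc9, were higher. The shares of all genes called between day 13 and day 12 in those settings are not given here. The number of Hox genes above the median on all arrays was 6. It was 2 (Hoxb1 and Hoxb2) with the median of the genes used in place of that of all probe sets. For the 10 Hox genes named by level or by direction, the other settings that tested them kept the direction and the side of the threshold between the fractions. Most Hox signals lay near the olfactory receptor level, where array signals understate differences, so the absence of one cannot be shown. The causes of these changes were not tested.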
